A study of Homo sapiens with 24 samples.

Results

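The genes described here encode 38 proteins of the lysosome, the acidic organelle in which cells break down proteins, glycans and lipids, and were measured by RNA-seq in Huh7 cells, a human hepatoma line grown in culture. They were taken from a list of 38 symbols, and all 38 were found among the 58024 rows of the deposited expression matrix through their Ensembl identifiers and GENCODE release 29. All 38 also passed the filter of a mean of 0.5 FPKM (fragments per kilobase of transcript, scaled to the mapped fragments of a library) that left 17252 genes for testing. The series holds 24 libraries in 6 groups of 4, and its title and design text ask how cells that lack ABHD6, a serine hydrolase that cleaves monoacylglycerols and lysophospholipids, differ from wild-type cells with and without palmitic acid. Each genotype, wild type (WT) and ABHD6 knockout (KO), gave 1 group from basal medium (called 0 h) and 2 groups exposed to palmitic acid, a saturated fatty acid, at 800 µM, 1 for 24 h and 1 for 48 h. The labels do not say how the knockout was made, how many clones it comprises, or if replicate libraries stem from independent cultures, and p-values thus reflect only how far the libraries spread. No library was kept for 24 h or 48 h without the fatty acid, and time in culture and palmitic acid therefore cannot be told apart.

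By role, 9 of the genes encode cathepsins and other proteases, 15 encode glycosidases and sulfatases, 7 encode lipid-handling proteins, and 7 encode membrane proteins or progranulin. Soluble lysosomal enzymes are made in the endoplasmic reticulum, tagged with mannose 6-phosphate in the Golgi and carried to the lysosome, where low pH, kept by the vacuolar proton pump, makes them active. Many of their genes carry a CLEAR element in the promoter, the site to which the related transcription factors TFEB, TFE3 and MITF bind when signalling from mTORC1 on the lysosome falls. In hepatocytes the lysosome takes up lipid droplets and lipoprotein remnants and hydrolyses their lipids, and inherited loss of single members causes storage diseases.

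The promoter letters of the members are shown first because several members share them. RefSeq promoter windows (GRCh38.p14, from 250 bases before to 50 bases after an annotated start) were found for 29 of the 38 members. The letters CACGTG, which read the same on both strands, were present in a window of 11 of the 29 (37.9%), against 8.77% of the 27305 genes with a window and 7.26% of all 35116 windows. TCACGTG, searched on both strands and containing CACGTG, was present in 10 of 29 (34.5%) against 4.49% of genes and 3.71% of windows. The full palindrome, CACGTG with GT before it and AC after it, which contains both shorter forms, was present in 4 of 29 (13.8%: GAA, GALNS, PLD3 and MCOLN1) against 0.421% of genes and 0.353% of windows. Of the 12 members that had a window and that rose in at least 1 comparison below, 5 held CACGTG, as did 6 of the 17 that did not. The letters were chosen as forms of the CLEAR element, which many lysosomal genes are known to carry. Their excess over all genes is therefore no independent result. The matches are letters in a window and were not tested for binding. The first 3 lines give the 40 bases around a CACGTG (in capitals) in members that rose, and the last 3 give them in members that passed no test. GAA, MCOLN1 and LAMP1 were chosen after their values were seen, the former 2 because they hold the full palindrome and LAMP1 because it holds 6 copies of CACGTG in 1 window.
CTSA, chr20:45891276-45891315, plus strand: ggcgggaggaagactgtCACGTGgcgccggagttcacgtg
CTSD, chr11:1763952-1763991, minus strand: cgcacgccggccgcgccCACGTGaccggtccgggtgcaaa
NEU1, chr6:31862925-31862964, minus strand: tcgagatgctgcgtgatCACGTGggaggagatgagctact
GAA, chr17:80101488-80101527, plus strand: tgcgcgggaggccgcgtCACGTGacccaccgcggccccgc
MCOLN1, chr19:7522593-7522632, plus strand: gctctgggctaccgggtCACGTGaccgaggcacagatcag
LAMP1, chr13:113297030-113297069, plus strand: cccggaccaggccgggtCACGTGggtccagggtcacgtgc
In these windows the match starts 42 bases before the annotated start in CTSA, 47 in CTSD, 126 in NEU1, 76 in GAA, 14 in MCOLN1 and 192 in LAMP1.

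The members that rose and hold the full palindrome are GALNS and PLD3, for which the 250 bases before the annotated start are shown 5′ to 3′, with the palindrome in capitals. Each also holds a second CACGTG, left in lower case.
GALNS, chr16:88856948-88857197, minus strand: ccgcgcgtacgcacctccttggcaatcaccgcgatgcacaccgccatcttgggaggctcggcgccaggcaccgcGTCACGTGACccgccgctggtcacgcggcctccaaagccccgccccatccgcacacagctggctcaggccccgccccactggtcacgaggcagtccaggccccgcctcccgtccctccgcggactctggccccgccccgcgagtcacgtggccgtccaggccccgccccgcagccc
PLD3, chr19:40348445-40348694, plus strand: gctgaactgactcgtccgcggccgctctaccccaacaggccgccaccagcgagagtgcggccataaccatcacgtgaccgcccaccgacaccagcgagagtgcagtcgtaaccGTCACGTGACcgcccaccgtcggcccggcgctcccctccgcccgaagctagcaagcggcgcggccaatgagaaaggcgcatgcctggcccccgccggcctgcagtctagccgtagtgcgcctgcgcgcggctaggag
In GALNS the full match lies farther from the start than the second copy, and in PLD3 both copies lie close together within a near repeat. Both genes rose in KO cells at 48 h, and PLD3 also in WT cells, as described below.

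By estimate the values rest on few fragments, and this limits the low members most. From the smallest steps between values, the fragments used to scale FPKM came to about 434000 to 775000 a library. On this estimate 1 fragment on a 2 kb transcript was worth 0.717 to 1.28 FPKM. It does not give how many fragments were sequenced or mapped in all. Groups at 0 h had the lowest estimates (479800 to 483000 on average, against 629500 to 727200 at the later times). Whether sequencing or counting set that difference was not tested. In all, 15 members were listed at 0 in at least 1 library. Genes annotated as antisense held 57.0% and 57.2% of the summed FPKM at 0 h in WT and KO cells, and 45.9% and 44.6% at 48 h. The sources used here do not give the strand setting of the authors' counting, so reads of a gene and of one that overlaps it on the opposite strand cannot be told apart. Such an annotated overlap exists for 15 of the 38 members, and it is named beside each result it touches. The strand setting itself bears on every row, also on those of the 23 members without such an overlap, and it was not tested. Mitochondrially encoded genes held 3.20% to 4.43% of the summed FPKM at 0 h and 10.4% to 14.9% later. The level of ABHD6 itself offered no check of the labels: 3 of 4 WT libraries listed it at 0 at each time, as did 4, 3 and 1 of 4 KO libraries at 0 h, 24 h and 48 h, and its highest value was 1.16 FPKM. All 12 hepatocyte markers passed the filter, with summed levels of 1517 to 1944 FPKM at 0 h and 2253 to 2880 FPKM at 48 h. At 24 h the sums were 1503 to 1943 FPKM in WT and 1165 to 1584 FPKM in KO cells. Of the 12, 5 rose and 0 fell in WT cells at 48 h (2.57% and 4.22% of all genes tested). In KO cells 3 rose and 1, APOA1, fell (3.4% and 6.42%). At 24 h 0 rose, and APOA1 and FGB fell in each genotype. For all genes, 1.46% rose and 2.6% fell in WT and 2.13% and 3.51% in KO cells at 24 h. Of 10 macrophage and leukocyte markers 4 were at 0 in every library and PTPRC did not exceed 0.998 FPKM, while LYZ, which carried most of that list's sum (79.9 to 219 FPKM at 0 h, 180 to 338 FPKM at 48 h), rose at 48 h in both genotypes. Its row also overlaps a gene on the opposite strand, and its part in the results below was not tested. Summed levels over all libraries were 0 to 10.1 FPKM for stellate and fibroblast markers, 0.653 to 27.0 FPKM for endothelial markers and 17.1 to 85.2 FPKM for biliary markers.

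After 48 h of palmitic acid, 8 of the 38 members rose in WT cells and 11 rose in KO cells, and none fell in either. Over all genes tested, 2.57% rose and 4.22% fell in WT cells and 3.4% rose and 6.42% fell in KO cells at 48 h. Both genotypes shared 6 of the called members: CTSL, TPP1, HEXA, NEU1, GLA and PLD3. CTSD and PPT1 passed the test in WT cells alone, and CTSC, IDS, GALNS, NPC2 and LAMP2 in KO cells alone, although no difference between the 2 responses passed its own test. When the fit was confined to genes free of opposite-strand overlap, which hold 23 members, 2 rose in WT cells (CTSL and NEU1) and 6 in KO cells (CTSL, CTSC, NEU1, GLA, IDS and LAMP2). The main fit called 3 and 6 of the same 23. With only the compared groups in the fit, 4 rose in WT and 9 in KO cells. Shares over all genes are not given here for these 2 fits, so their counts have no background beside them. In that second fit the 48 h calls of TPP1, GLA, PLD3 and PPT1 in WT cells (adjusted p = 0.118, 0.111, 0.135 and 0.152) and of PLD3, NPC2 and LAMP2 in KO cells (adjusted p = 0.0543, 0.0807 and 0.0653) were lost. The median log2 fold change of the 38 was 1.05 in WT and 0.99 in KO cells, against 0 over all genes tested. The estimates were above 0 for 33 of 38 members in WT and 32 of 38 in KO cells, while 50.1% and 49.1% of all genes lay above 0. Of all genes called at 48 h, 37.8% in WT and 34.6% in KO cells were higher, a share that became 50.2% and 48.9% with median-of-ratios scaling and 58.2% and 52.5% with quantile normalization. Protein-coding genes free of opposite-strand overlap had medians of 0.18 and 0.29 at 48 h, below the medians of the members but also above 0. Of these 6786 genes, 218 rose and 89 fell in WT cells, and 329 rose and 129 fell in KO cells. Rises thus outnumbered falls in that class, as among the members. Of 5257 protein-coding genes with such overlap, 130 rose and 345 fell in WT and 172 and 516 in KO cells. All folds are on the scale of log2(FPKM + 0.5), which understates changes of low genes, and the test was limma's moderated test over all 24 libraries with Benjamini-Hochberg adjustment at 0.05.

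**Figure D1:**
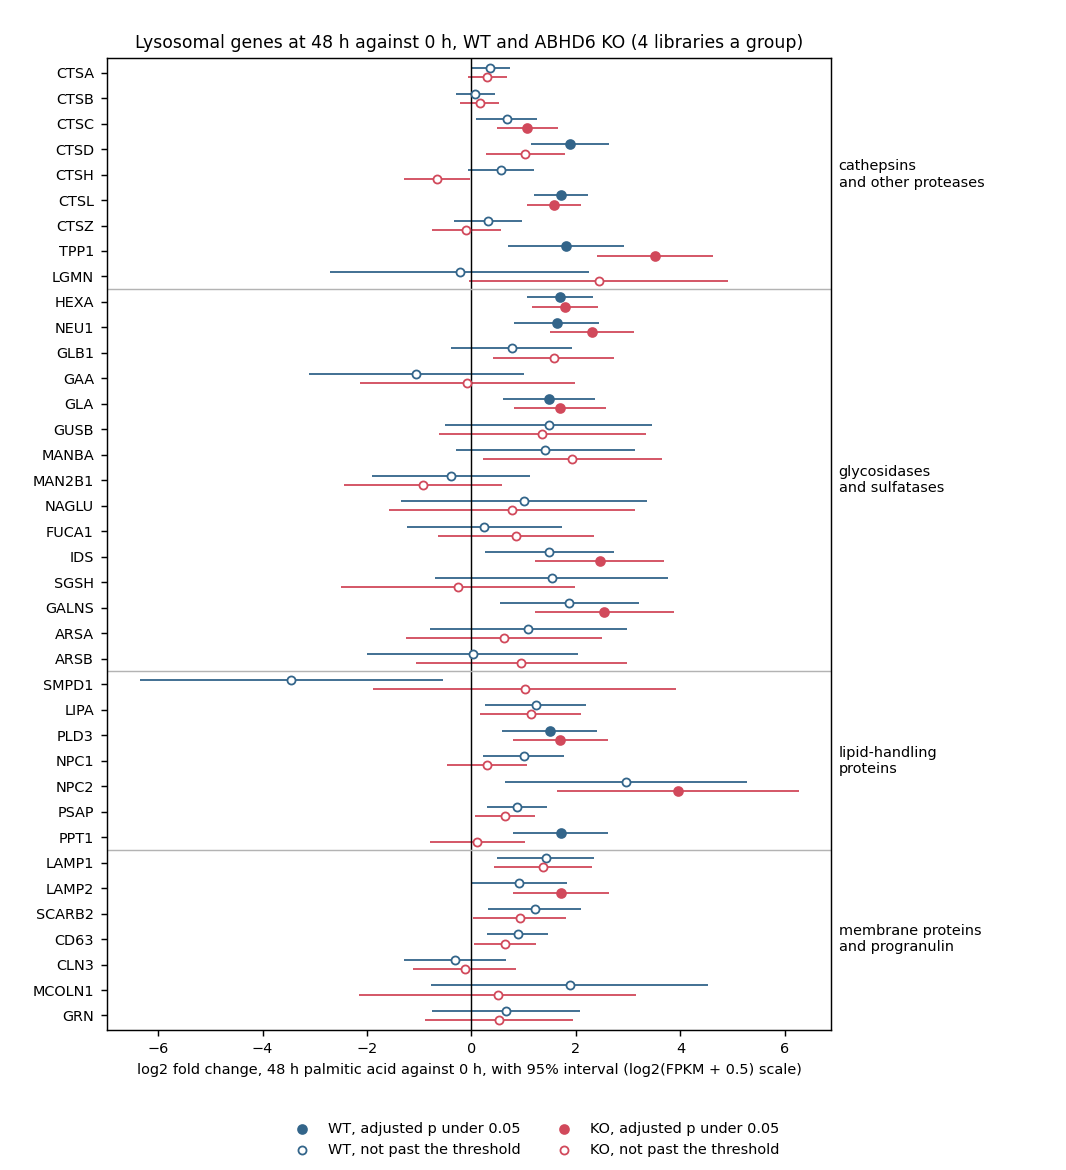
Log2 fold change at 48 h against 0 h (x axis, log2(FPKM + 0.5) scale) for each of the 38 genes (y axis, by role), in WT (blue) and KO (red) cells with 4 libraries a group. Lines are 95% intervals and filled points passed an adjusted p of 0.05: 8 in WT and 11 in KO cells, all to the right of 0.

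At 24 h fewer members had moved. TPP1 alone rose in WT cells (1.46% of all genes rose and 2.6% fell), and CTSA, TPP1 and GALNS rose in KO cells (2.13% of all genes rose and 3.51% fell). With only the compared groups in the fit, the calls of TPP1 in WT cells and of CTSA and GALNS in KO cells were lost (adjusted p = 0.104, 0.0644 and 0.111). No member fell at 24 h, and the medians over the 38 were 0.41 in WT and 0.43 in KO cells. Summed over the 38 genes, the level ran from 513 to 710 FPKM in the WT libraries at 0 h, 756 to 825 FPKM at 24 h and 1022 to 1204 FPKM at 48 h. In KO cells the sums were 580 to 730, 708 to 747 and 983 to 1125 FPKM at the same times. The WT sums did not overlap between any of the times, whereas 1 KO library at 0 h lay within the 24 h range. As a share of each library's summed FPKM the 38 genes went from 0.0448% to 0.0651% at 0 h to between 0.108% and 0.144% at 48 h.

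Among the proteases, CTSL, CTSD, CTSC, TPP1 and CTSA rose in at least 1 comparison and CTSB, CTSH, CTSZ and LGMN in none. CTSL (chr9:87725519-87731393, plus strand) encodes cathepsin L, a cysteine endopeptidase of the lysosome, and gave the lowest adjusted p of all members. In WT cells its levels were 27.6, 17.5, 19.8 and 22.8 FPKM at 0 h, 35.2, 30.3, 48.3 and 31.1 at 24 h, then 73, 80.4, 73.7 and 63.3 at 48 h (libraries 0 to 3, the order used throughout). In KO cells they were 16.1, 31.6, 36.4 and 21.9, then 26.8, 40.9, 34 and 38.1, then 66.5, 61.4, 108 and 78.2 FPKM. Every 48 h library was above every 0 h and 24 h library of its genotype. The log2 fold change at 48 h was 1.72 ± 0.25 (SE; limma adjusted p = 6.9e-05) in WT and 1.58 ± 0.25 (adjusted p = 0.000111) in KO cells. CTSL has no annotated gene on the opposite strand, and both calls were kept in all 8 fits that left out 1 library of the groups compared.

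CTSD (chr11:1752752-1764573, minus strand) encodes cathepsin D, the main aspartic protease of lysosomes. Its WT levels were 19.9, 13.8, 21.5 and 12.2 FPKM at 0 h, 29.8, 60.1, 22.2 and 32.1 at 24 h, then 43.1, 80.9, 80.6 and 52.3 at 48 h. In KO cells they were 24.1, 12.8, 36.9 and 11.1, then 12.5, 15.3, 14.5 and 9.22, then 50.2, 29.1, 52.7 and 30.1 FPKM. In WT cells the 0 h libraries lay below those of both later times, whereas the KO libraries at 24 h lay within or below the 0 h range and 1 KO library at 0 h lay within the 48 h range. At 48 h the fold was 1.89 ± 0.36 in WT cells (adjusted p = 0.00177) and 1.03 ± 0.36 in KO cells (adjusted p = 0.0796). The WT call was kept in all 8 fits without 1 library. AC068580.3, which shares 493 exonic bases with CTSD on the opposite strand, had means of 63.1 and 103.5 FPKM in WT cells at 0 h and 48 h, and its part in the CTSD values was not tested.

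CTSC (chr11:88293592-88337787, minus strand) encodes cathepsin C, the dipeptidyl peptidase that activates granule serine proteases. WT libraries held 34.2, 33.1, 38.6 and 60.2 FPKM at 0 h and 63.6, 65.5, 41.7 and 99.3 at 48 h, and KO libraries 23.1, 34.6, 39.8 and 40.9 and 59.7, 75.5, 77.3 and 73.7. The KO groups did not overlap, and in WT cells library 3 at 0 h and library 2 at 48 h crossed. CTSC rose in KO cells at 48 h by 1.06 ± 0.28 (adjusted p = 0.0153), and the WT estimate was 0.67 ± 0.28 (adjusted p = 0.18). The KO call rests on library 0 of the 0 h group, without which the adjusted p was 0.0649.

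TPP1 (chr11:6612763-6619485, minus strand) encodes tripeptidyl peptidase 1, which removes tripeptides from the ends of proteins, and was the member that rose in the most comparisons. WT libraries held 1.36, 0.646, 3.44 and 0.655 FPKM at 0 h, 7.23, 17.6, 5.21 and 27.7 at 24 h, then 5.7, 6.5, 4.73 and 5.92 at 48 h. KO libraries held 0.609, 1.19, 0.602 and 0, then 5.32, 4.92, 5.19 and 13.4, then 8.45, 9.47, 16.7 and 11 FPKM. All treated libraries of both genotypes exceeded all 0 h libraries, which lay at the level of a few fragments. In WT cells the 24 h libraries spread widely and library 3 was the highest, and in KO cells library 3 at 24 h stood above the other 3. The folds at 24 h were 2.79 ± 0.53 in WT (adjusted p = 0.00259) and 2.81 ± 0.53 in KO cells (adjusted p = 0.00179). At 48 h they were 1.81 ± 0.53 (adjusted p = 0.0409) and 3.52 ± 0.53 (adjusted p = 7.33e-05). The WT call at 48 h was the weakest: it was kept only without library 2 of the WT 0 h group, and leaving out any other of the 7 libraries ended the call, with an adjusted p of at most 0.124. It was also lost with a pseudocount of 0.1, without the filter, with quantile normalization and with the replicate number as a block (adjusted p = 0.0727, 0.0514, 0.0893 and 0.0591). With only the compared groups in the fit, both WT calls were lost (adjusted p = 0.104 at 24 h and 0.118 at 48 h) and both KO calls were kept. The gene on the opposite strand, AC091564.6, was listed at 0 in all libraries, and its part in the TPP1 values was not tested.

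CTSA, the carboxypeptidase that protects neuraminidase and beta-galactosidase, rose in KO cells at 24 h by 0.65 ± 0.18 (adjusted p = 0.0304), a call kept in 2 of 8 fits without 1 library. It was lost without KO 0 h library 1 or 2 or any KO 24 h library, with adjusted p of at most 0.111, and also with only the compared groups in the fit (0.0644) or without the variance trend (0.112). CTSA shares exonic bases with NEURL2, PLTP and AL008726.1 on the opposite strand. Of the 4 proteases without a call, CTSB, cathepsin B, was the highest, with a mean of 78.2 FPKM over the 24 libraries and 48 h estimates of 0.07 ± 0.18 in WT and 0.15 ± 0.18 in KO cells. LGMN, the asparaginyl endopeptidase legumain, was the lowest at 4.92 FPKM and was listed at 0 in 7 libraries. Their precision differed: the 95% interval of the KO 48 h fold was -0.22 to 0.53 for CTSB and -0.04 to 4.92 for LGMN.

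The glycosidases and sulfatases, which remove sugars and sulfates from glycoproteins, glycolipids and glycosaminoglycans, held 3 members that rose at 48 h in WT cells and 5 in KO cells out of 15. The shares of all genes tested that rose were 2.57% and 3.4%. HEXA (chr15:72340919-72376476, minus strand) encodes the alpha subunit of beta-hexosaminidase, which degrades the ganglioside GM2. Its levels in WT cells were 9.93, 5.31, 10.8 and 5.29 FPKM at 0 h, 13.5, 7.86, 18.4 and 12.8 at 24 h, then 20.4, 22.1, 30.6 and 29.7 at 48 h. In KO cells they were 8.59, 9.79, 7.15 and 8.76, then 12, 17.2, 15.5 and 11.3, then 30.1, 32.1, 21.7 and 42.7 FPKM. The 48 h libraries of each genotype lay above all its earlier libraries, and the KO libraries at 24 h also lay above those at 0 h. The 48 h folds were 1.70 ± 0.31 in WT (adjusted p = 0.000866) and 1.79 ± 0.31 in KO cells (adjusted p = 0.000265), both kept without any 1 library. AC009690.2 overlaps 1273 exonic bases of HEXA on the opposite strand, with means of 52.6 and 107.0 FPKM in WT cells at 0 h and 48 h, and its part was not tested.

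NEU1 (chr6:31857659-31862906, minus strand) encodes the lysosomal sialidase, which removes terminal sialic acid and works in a complex with CTSA and GLB1. WT libraries held 9.1, 4.75, 4.38 and 4.6 FPKM at 0 h, 9.37, 11, 7.77 and 16.4 at 24 h, then 17.9, 18.3, 12.2 and 25.7 at 48 h. KO libraries held 5.68, 2.5, 2.88 and 10.04, then 8.5, 12.9, 7.28 and 14.7, then 31, 17.3, 27.1 and 25.2 FPKM. Neither genotype had overlap between 0 h and 48 h, and library 0 at 0 h in WT cells lay above the other 3. NEU1 rose at 48 h by 1.63 ± 0.39 in WT (adjusted p = 0.0115) and 2.31 ± 0.39 in KO cells (adjusted p = 0.000253), both kept in all 8 fits without 1 library, and it has no annotated opposite-strand neighbour. Of its complex partners, GLB1, beta-galactosidase and the highest glycosidase without a call (mean 18.7 FPKM), overlaps SEC13P1 on the opposite strand and had 48 h estimates of 0.77 ± 0.56 in WT and 1.57 ± 0.56 in KO cells (adjusted p = 0.506 and 0.0795). CTSA had 48 h estimates of 0.36 ± 0.18 and 0.30 ± 0.18 (adjusted p = 0.282 and 0.344), and the 3 genes were not tested against each other.

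GLA (chrX:101397803-101408012, minus strand) encodes alpha-galactosidase A, which cleaves globotriaosylceramide. WT levels were 5.07, 10.9, 7.09 and 3.51 FPKM at 0 h and 19.2, 12.9, 13.9 and 30.3 at 48 h, and KO levels 4.06, 4.94, 7.81 and 5.85 and 10.3, 19.7, 30.9 and 20.6. All 48 h libraries were above all 0 h libraries of their genotype, with library 3 at 48 h the highest in WT and library 2 in KO cells. The folds were 1.48 ± 0.42 (adjusted p = 0.0344) and 1.70 ± 0.42 (adjusted p = 0.00981). Among genes free of opposite-strand overlap, where fewer genes are tested, the WT call was lost (adjusted p = 0.0684), as it was with only the compared groups in the fit (0.111) or without the variance trend (0.0509). The KO call was kept in all 8 fits without 1 library, and the WT call was lost without WT 0 h library 0, 2 or 3 or WT 48 h library 0 or 3, with adjusted p of at most 0.127.

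GALNS and IDS encode sulfatases that act on glycosaminoglycans, GALNS on keratan sulfate and chondroitin sulfate and IDS on heparan sulfate and dermatan sulfate. GALNS (chr16:88813734-88856970, minus strand) read 3.06, 3.24, 0 and 1.1 FPKM at 0 h, 6.51, 6.97, 8.13 and 2.18 at 24 h, then 7.49, 9.13, 2.32 and 8.38 at 48 h in WT cells. In KO cells it read 1.27, 1.04, 0.453 and 0, then 4.01, 2.45, 8.02 and 3.98, then 8.28, 2.9, 8.12 and 5.37 FPKM. All treated KO libraries were above all KO libraries at 0 h, and in WT cells library 3 at 24 h and library 2 at 48 h remained within the 0 h range. GALNS rose in KO cells by 2.15 ± 0.64 at 24 h (adjusted p = 0.0484) and 2.54 ± 0.64 at 48 h (adjusted p = 0.0104), and the WT estimate at 48 h was 1.88 ± 0.64 (adjusted p = 0.0826). The 24 h call was kept only without KO 0 h library 0, with an adjusted p of at most 0.148 without any other library, whereas the 48 h call was kept in all 8 fits. The 24 h call was also lost in 7 of 9 other settings (adjusted p of 0.0515 to 0.111), the 48 h call in none. GALNS shares 27 exonic bases with TRAPPC2L on the opposite strand. IDS (chrX:149476990-149521096, minus strand) was near the detection limit at 0 h, with 0.297, 0, 0 and 0 FPKM in KO and 0, 0.556, 0 and 0 in WT cells. At 48 h it read 8.14, 2.12, 1.61 and 1.36 FPKM in KO and 0.505, 2.32, 0.803 and 1.74 in WT cells. The KO groups did not overlap, and library 0 at 48 h was far above the other 3. The KO fold was 2.45 ± 0.59 (adjusted p = 0.00786), and without library 0 at 48 h the adjusted p was 0.0414. FUCA1, the alpha-fucosidase, was the lowest glycosidase without a call, with a mean of 0.529 FPKM and 14 of 24 libraries at 0.

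**Figure D2:**
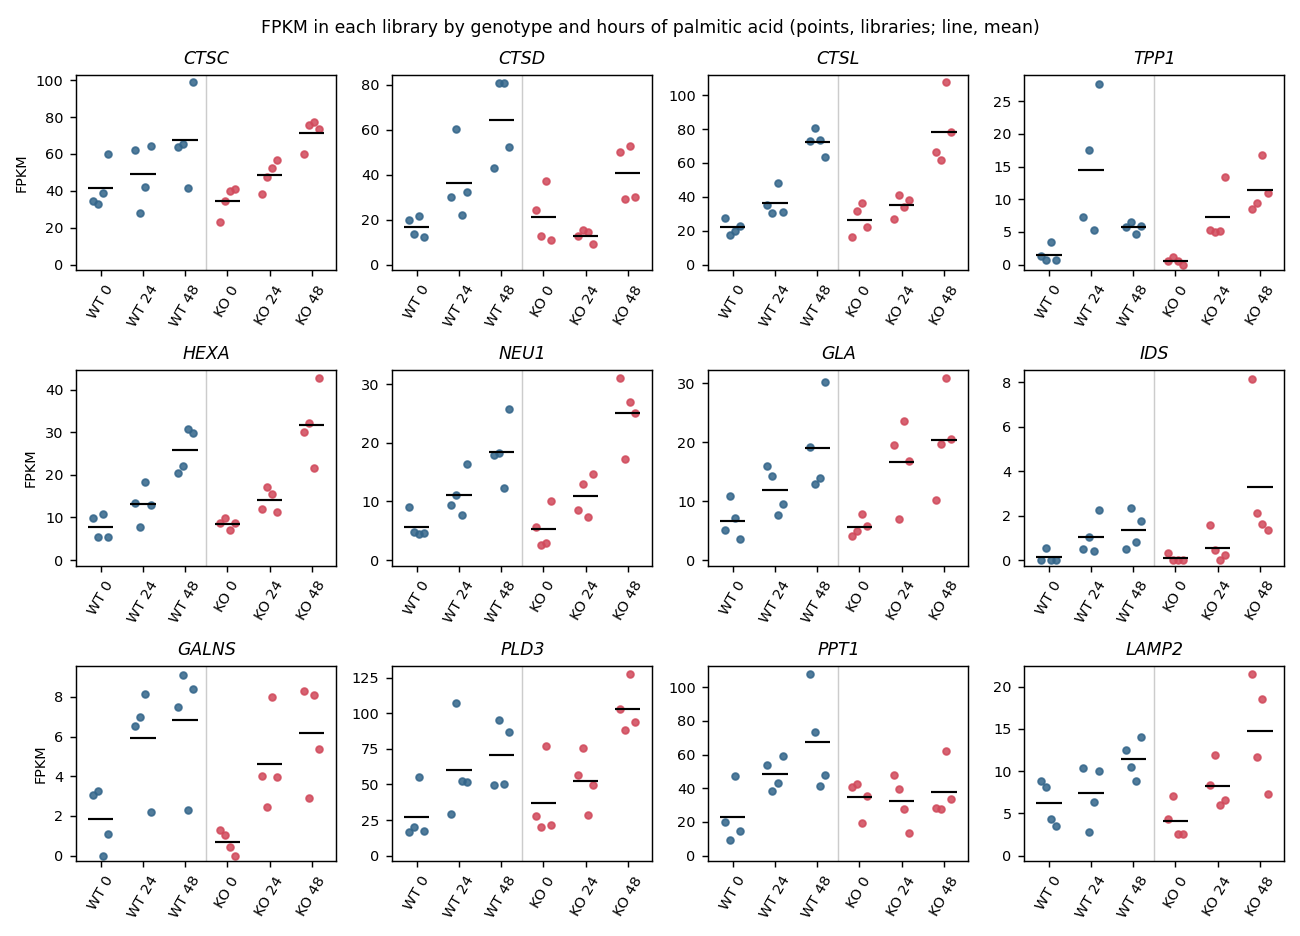
FPKM (y axis) in each library (points) of the 6 groups (x axis, genotype and hours of palmitic acid; WT blue, KO red) for the 12 members with the lowest adjusted p; black lines are group means of 4 libraries. CTSL, TPP1, HEXA, NEU1 and GLA show no overlap between 0 h and 48 h in either genotype.

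Lipid-handling members include the hydrolases of lysosomal lipids, the cholesterol transfer proteins NPC1 and NPC2, the saposin precursor PSAP, and PPT1, which removes palmitate from proteins. PLD3 (chr19:40348456-40380439, plus strand), a phospholipase D family exonuclease of the endolysosomal lumen, rose in both genotypes. WT libraries held 16.3, 19.96, 55.4 and 17 FPKM at 0 h and 49.8, 95.4, 50.2 and 86.7 at 48 h, and KO libraries 27.6, 20.2, 77.4 and 21.4 and 103, 88.2, 128 and 93.8. Library 2 at 0 h stood above the other 3 in both genotypes, and it alone overlapped the 48 h libraries in WT cells, while the KO groups did not overlap. The folds were 1.5 ± 0.44 (adjusted p = 0.04) in WT and 1.70 ± 0.44 (adjusted p = 0.013) in KO cells. The WT call was lost without WT 0 h library 0, 1 or 3 or WT 48 h library 1 or 3, with adjusted p of at most 0.123, and the KO call was kept in all 8 fits. With only the compared groups in the fit both calls were lost (adjusted p = 0.135 in WT and 0.0543 in KO cells), and the WT call also without the filter (0.0596) or the variance trend (0.0774). The opposite-strand genes C19orf47 and HIPK4 were listed with group means of at most 4.14 FPKM. Those values come from the same counting with unknown strand setting, and their part in the PLD3 values was not tested.

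PPT1 (chr1:40071461-40097727, minus strand) encodes palmitoyl-protein thioesterase 1 and, of the lipid-handling members with a call, had 48 h estimates farthest apart between the genotypes. WT libraries held 19.9, 9.18, 47.5 and 14.3 FPKM at 0 h, 53.8, 38.4, 43.2 and 59.4 at 24 h, then 108, 73.3, 41.2 and 47.9 at 48 h. KO libraries held 41, 42.7, 19.3 and 35.4, then 48, 39.3, 27.8 and 13.6, then 28.1, 27.8, 62 and 33.4 FPKM. In WT cells 1 library at 0 h, library 2, lay within the later ranges, and in KO cells the 3 times overlapped throughout. The 48 h fold was 1.71 ± 0.44 in WT (adjusted p = 0.0177) and 0.11 ± 0.44 in KO cells (adjusted p = 0.959). The difference of the 2 responses was -1.60 ± 0.62 with an unadjusted p of 0.0166 and an adjusted p of 0.641. The WT call was lost without WT 0 h library 1 or 3 or WT 48 h library 0, with adjusted p of at most 0.0796, and with only the compared groups in the fit (0.152). CAP1 shares 1189 exonic bases with PPT1 on the opposite strand and had means of 46.2 and 90.3 FPKM in WT and 48.0 and 81.3 FPKM in KO cells at 0 h and 48 h, so that the mean of the neighbour was higher at 48 h in both genotypes; its part in the PPT1 values was not tested.

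NPC2, the soluble cholesterol carrier of the lumen, rose in KO cells at 48 h by 3.95 ± 1.12 (adjusted p = 0.0242), a call lost without KO 0 h library 0 or 3 or KO 48 h library 0, 1 or 2, with adjusted p of at most 0.0882, and also with only the compared groups in the fit (0.0807) or a pseudocount of 0.1 (0.0511). It overlaps ISCA2 on the opposite strand. PSAP was the highest member of all without a call (mean 96.2 FPKM over the 24 libraries). Its WT libraries at 48 h (118 to 152 FPKM) lay above those at 0 h (42.5 to 95.1 FPKM), and its folds were 0.87 ± 0.28 in WT and 0.64 ± 0.28 in KO cells (adjusted p = 0.0613 and 0.169). SMPD1, acid sphingomyelinase and the lowest lipid-handling member without a call (mean 8.74 FPKM), was the member with the widest intervals. Its WT libraries read 34.4, 1.82, 40.6 and 28.6 FPKM at 0 h and 0, 1.58, 0 and 12.4 at 48 h, and its KO libraries 0, 0, 0 and 17.6 and 0.918, 6.33, 0.929 and 2.23. Values at or near 0 and values above 10 FPKM occurred within the same group, and the WT estimate of -3.45 ± 1.40 did not pass the test (adjusted p = 0.164).

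Of the 7 membrane proteins and progranulin, LAMP2 alone passed the test, in KO cells at 48 h, where 3.4% of all genes tested rose. LAMP2 (chrX:120427827-120469365, minus strand) encodes a heavily glycosylated protein of the lysosomal membrane whose A isoform serves chaperone-mediated autophagy. WT libraries held 8.82, 8.09, 4.29 and 3.56 FPKM at 0 h and 12.5, 10.5, 8.79 and 14 at 48 h, and KO libraries 4.34, 7.04, 2.61 and 2.6 and 21.6, 11.7, 18.5 and 7.35. The KO groups did not overlap, and the WT groups met at library 0 of 0 h and library 2 of 48 h. LAMP2 rose in KO cells by 1.71 ± 0.44 (adjusted p = 0.0131), with a WT estimate of 0.91 ± 0.44 (adjusted p = 0.273). Without KO 48 h library 0 the adjusted p was 0.0558, and with only the compared groups in the fit it was 0.0653. CD63, a tetraspanin of late endosomes with a gene on the opposite strand and the highest of the membrane members without a call (mean 52.3 FPKM), had a WT estimate of 0.88 ± 0.29 (adjusted p = 0.066) with no overlap of the WT groups. LAMP1, named after its values were seen, had almost the same estimates in WT and KO cells, 1.42 ± 0.45 and 1.37 ± 0.45 (adjusted p = 0.0591 and 0.0553), with no overlap of groups in either genotype. MCOLN1, the calcium channel mucolipin 1, was the lowest (mean 5.99 FPKM) and was listed at 0 in 6 libraries.

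Set side by side at 48 h, the roles had median folds of 0.56 in WT and 1.03 in KO cells for proteases, 1.41 and 1.35 for glycosidases and sulfatases, 1.23 and 1.02 for lipid-handling proteins, and 0.91 and 0.65 for membrane proteins and progranulin. Members that passed the test were 3 of 9, 3 of 15, 2 of 7 and 0 of 7 in WT cells in that order, and 3 of 9, 5 of 15, 2 of 7 and 1 of 7 in KO cells. Among all genes tested, 2.57% rose in WT and 3.4% in KO cells at 48 h, and differences between roles were not tested. In level, protease genes had a median group mean of 21.9 FPKM in WT cells at 0 h and glycosidase and sulfatase genes 5.71 FPKM. Summed by role in WT cells from 0 h to 48 h, proteases went from 278 ± 13.9 to 440.1 ± 21.8 FPKM (SD, n = 4), glycosidases and sulfatases from 78.9 ± 20.6 to 149 ± 13.0 FPKM, lipid-handling proteins from 177 ± 66.9 to 337 ± 46.4 FPKM, and membrane proteins and progranulin from 94.7 ± 8.31 to 167 ± 17.8 FPKM. For each role the 48 h range lay above the 0 h range in WT cells. In KO cells the sums went from 271 ± 31.0 to 408 ± 27.6 FPKM for proteases, from 63.1 ± 13.9 to 147 ± 9.69 FPKM for glycosidases and sulfatases, and from 179 ± 31.7 to 325 ± 48.7 FPKM for lipid-handling proteins, again with no overlap. For membrane proteins and progranulin the KO sums overlapped, with 91.0 to 169 FPKM at 0 h, where library 2 was the highest, and 154 to 184 FPKM at 48 h. Without overlap between the 4 and 4 libraries, 9 members were higher at 48 h in WT cells and 15 in KO cells, against 5.01% and 6.25% of all genes tested.

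**Figure D3:**
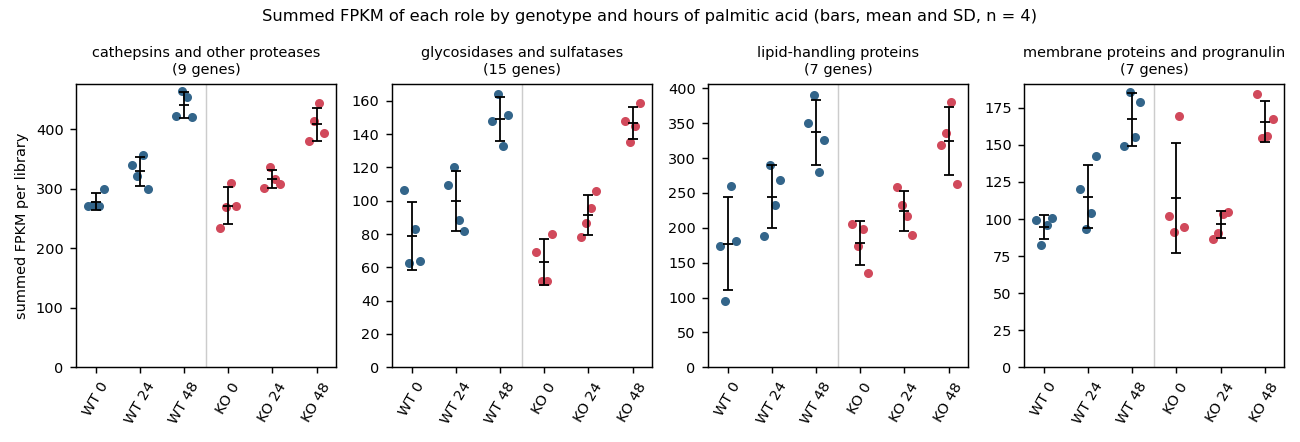
Summed FPKM per library (y axis, from 0) of the genes of each role, for the 6 groups (x axis, genotype and hours of palmitic acid; WT blue, KO red). Points are libraries and bars the mean and SD of 4. In WT cells each role's 48 h libraries lie above its 0 h libraries, and in KO cells membrane proteins and progranulin are the exception.

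Between 24 h and 48 h most estimates lay above 0, but few single genes passed the test. In WT cells no member did (limma; 0.058% of all genes rose), 6 had an unadjusted p under 0.05 (7.23% of all genes), and CTSL came nearest at 1.01 ± 0.25 (adjusted p = 0.147). In KO cells CTSL rose by 1.14 ± 0.25 (adjusted p = 0.033) and CTSD by 1.59 ± 0.36 (adjusted p = 0.047), against 0.11% of all genes. Leaving out any 1 of the 8 libraries ended the CTSD call (adjusted p of at most 0.135), and the CTSL call was lost among genes free of opposite-strand overlap (adjusted p = 0.114) and without KO 24 h library 0, 2 or 3 or KO 48 h library 0, 2 or 3 (adjusted p of at most 0.139). Both calls were also lost with only the compared groups in the fit (adjusted p = 0.0659 for CTSD and 0.0925 for CTSL) or without the variance trend (0.145 for each), and that of CTSD without the filter (0.0603). The medians over the 38 were 0.55 in WT and 0.73 in KO cells. Group means stood in the ascending order 0 h, 24 h, 48 h for 24 of 38 members in WT and 17 of 38 in KO cells, against 18.8% and 17.7% of all genes tested. TPP1 was out of that order in WT cells, where its 24 h mean was the highest, and CTSD and PPT1 were out of it in KO cells, where their 24 h means were the lowest.

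In the comparison of KO with WT cells, no member passed the test (limma) at 0 h, 24 h or 48 h, where 0.0985%, 0.0116% and 0.0638% of all genes did in either direction. With an unadjusted p under 0.05 there were 2, 4 and 2 members (6.92%, 5.17% and 6.56% of all genes), and the lowest adjusted p values were 0.499, 0.467 and 0.667. The median difference of KO minus WT was 0.01, -0.04 and 0.08 at 0 h, 24 h and 48 h. This does not show that the genotypes were alike, since the median 95% interval reached 0.977 to either side on the log2 scale, and the interval lay within 1 of 0 for 10, 10 and 9 members. CTSL and HEXA were among these at every time, with KO minus WT differences at 48 h of 0.08 ± 0.25 (95% interval -0.43 to 0.60) and 0.28 ± 0.31 (95% interval -0.35 to 0.91). The lowest unadjusted p belonged to CTSD at 24 h, where KO libraries (9.22 to 15.3 FPKM) were all below WT libraries (22.2 to 60.1 FPKM) and the difference was -1.38 ± 0.36 (adjusted p = 0.467). Tests of the KO response minus the WT response found no member at 24 h or 48 h (0% and 0.0522% of all genes in either direction), with 3 and 4 members at an unadjusted p under 0.05 (5.51% and 6.6% of all genes). TPP1 had a difference of responses at 48 h of 1.71 ± 0.75 and CTSD of -0.86 ± 0.51 (adjusted p = 0.715 and 0.807).

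**Figure D4:**
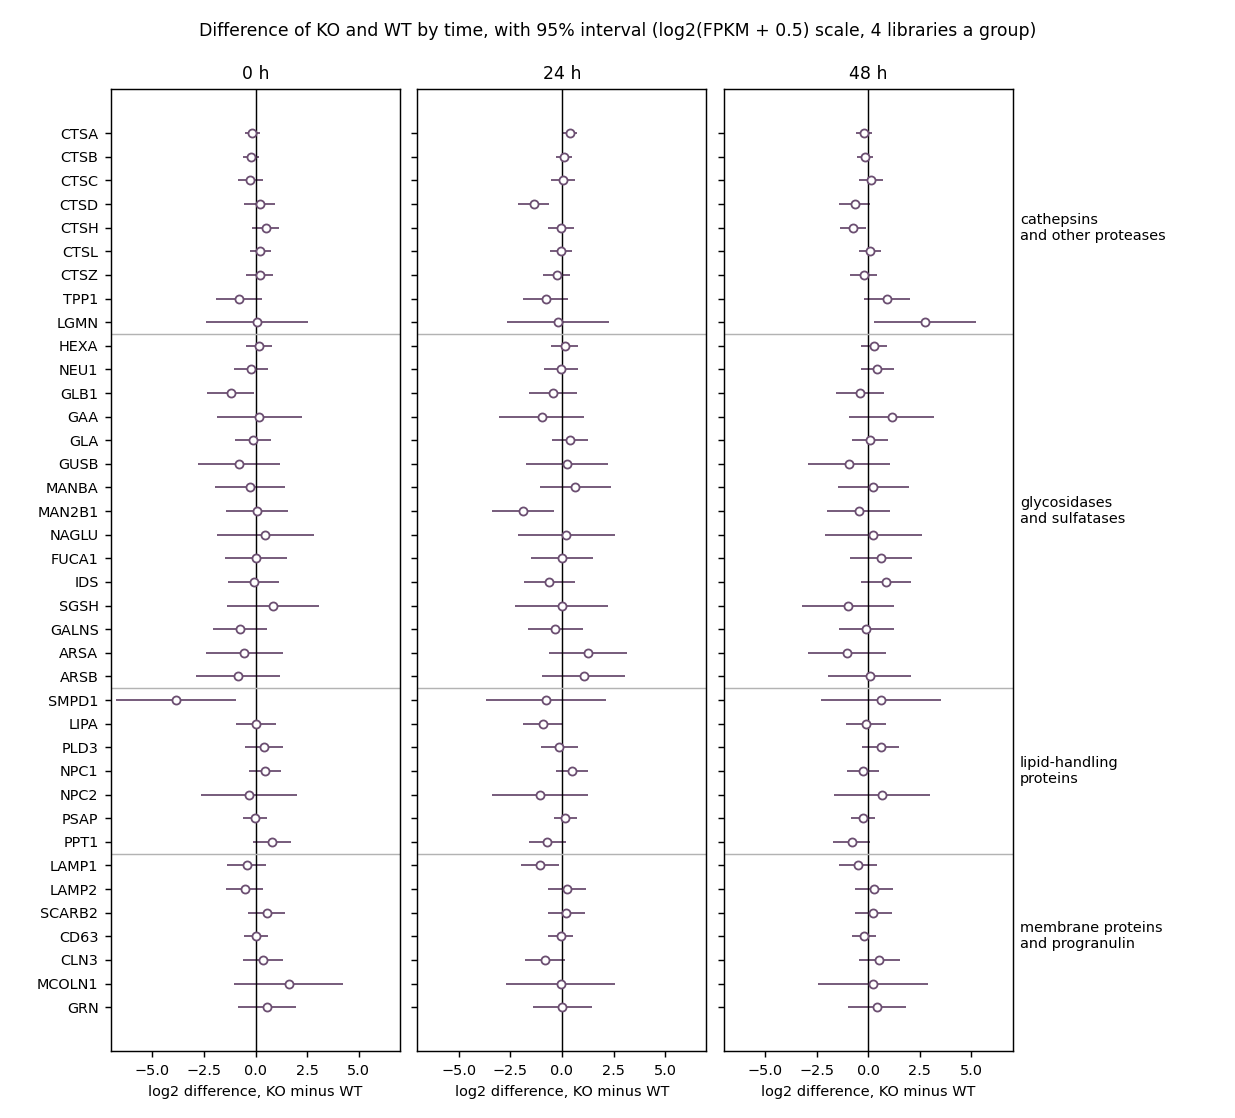
KO minus WT difference (x axis, log2(FPKM + 0.5) scale) for each of the 38 genes (y axis, by role) at 0 h, 24 h and 48 h, with 95% intervals and 4 libraries a group. No point passed an adjusted p of 0.05, and intervals are wide for low members such as SMPD1 and LGMN.

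Other genes of lysosome biology were counted from 5 lists. Among 19 tested regulators of the TFE factors and of the lysosomal mTORC1 platform, 2 rose in WT and 3 in KO cells at 48 h and none fell. Here and for the lists that follow, the shares over all genes tested at 48 h were 2.57% higher and 4.22% lower in WT cells and 3.4% higher and 6.42% lower in KO cells, and 1 called gene in lists of 12 to 25 is no result about a list. RRAGD, a Rag GTPase that links amino acids to mTORC1, rose in all 4 comparisons with 0 h, from a mean of 0.531 FPKM at 0 h to 8.26 FPKM at 48 h in WT cells (log2 3.19 ± 0.58, adjusted p = 0.000936) and from 1.35 to 13.4 FPKM in KO cells (3.03 ± 0.58, adjusted p = 0.000905). FNIP1, a partner of folliculin, rose in KO cells at 24 h and 48 h, RRAGC in KO cells at 48 h, and LAMTOR4, which overlaps an opposite-strand gene, in WT cells at 24 h and 48 h. TFE3 itself had group means of 6.97 to 11.6 FPKM and passed no test, while TFEB was listed at 0 in at least 3 of 4 libraries in every group. Of 16 vacuolar proton pump genes, 1 rose in WT and 2 in KO cells at 48 h, among them ATP6V0E1 in both (2.38 ± 0.51 and 2.79 ± 0.51, adjusted p = 0.00418 and 0.000546).

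Of 12 genes of mannose 6-phosphate tagging and sorting, 1 rose and 1 fell at 48 h in each genotype, beside 2.57% and 4.22% of all genes in WT and 3.4% and 6.42% in KO cells. IGF2R, the large mannose 6-phosphate receptor, rose in WT cells (1.56 ± 0.45, adjusted p = 0.0372), and SUMF2, a relative of the sulfatase-activating enzyme, rose in KO cells (1.24 ± 0.32, adjusted p = 0.014). GNPTG, a subunit of the phosphotransferase that makes the tag, fell from a mean of 442 to 207 FPKM in WT cells and from 488 to 164 FPKM in KO cells, but its row overlaps a gene on the opposite strand. Of 25 other hydrolases and activators tested, 3 rose in WT and 5 in KO cells at 48 h, with none falling. ASAH1, acid ceramidase, rose from 42.3 to 152 FPKM in WT (1.95 ± 0.25, adjusted p = 1.94e-05) and from 44.9 to 124 FPKM in KO cells (1.47 ± 0.25, adjusted p = 0.000339), and also overlaps an opposite-strand gene. PLBD2, a phospholipase B-like protein with no such overlap, rose by 1.74 ± 0.41 in WT and 2.20 ± 0.41 in KO cells (adjusted p = 0.0101 and 0.000731). Of 19 other membrane transporters tested, 4 rose in WT cells, and 3 rose and 1 fell in KO cells, at 48 h. SLC17A5, the sialic acid exporter, had no opposite-strand overlap and rose in WT cells by 2.81 ± 0.46 at 48 h (adjusted p = 0.000277), from 0.831 to 7.92 FPKM. It had no call in KO cells. TMEM192 rose at 48 h by 2.44 ± 0.47 in WT and 2.11 ± 0.47 in KO cells (adjusted p = 0.00185 and 0.0044). CD164, which overlaps an opposite-strand gene, rose by 1.36 ± 0.34 and 1.25 ± 0.34 (adjusted p = 0.0154 and 0.0185).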

How the data were processed

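The authors deposited FPKM for 58024 Ensembl genes in 24 libraries of polyadenylated RNA, prepared with a strand-specific kit per the labels' protocols. Per the submitters' processing notes the build was GRCh38 and the tools were STAR, Cufflinks and Cuffdiff; versions, roles and the strand setting are not given in the sources used here. Every column of the matrix matched 1 sample by its title, and 0 columns belonged to no sample. Identifiers were matched without version to GENCODE release 29 (57420, 99.0%), and 45 copies of the Y pseudoautosomal genes were left out.

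The 17252 genes whose mean reached 0.5 FPKM were fitted as log2(FPKM + 0.5) with limma 3.58.1 (trend; R 4.3.3) in 1 model of 6 groups and 18 residual degrees of freedom. All 11 comparisons came from that model, p-values were two-sided with Benjamini-Hochberg adjustment over all genes tested, and intervals are 95% model intervals. FPKM hold no counts, so the fragments used for scaling were estimated from the smallest steps between low values. Fragments of 200 bases were assumed, and the estimate gives only an approximate precision. The fit was also run on simulated data, with results not given here. The 12 called members with the lowest adjusted p are shown by library, other called members by fold, and uncalled members by ranges or as the highest and lowest of a role. Members and lists were chosen with earlier results of these data known. Alternatives were the pseudocount, the filter, 2 rescalings, the groups fitted, the variance trend, the replicate block, genes without opposite-strand overlap, and leaving out each library.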

Additional observations from a re-analysis of the deposited data

Results flagged for a closer look

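In 18 of 228 sets of 4 libraries (38 genes in 6 groups) 1 library lay apart from the other 3 by Dixon's 95% criterion. About 5% of sets reach it when values follow a normal distribution, which FPKM near 0 do not. A set with 1 library above 0 and the other 3 at 0 always meets it, so the 5% is no measure of chance here. All 18 were high values. Among members that rose, the library that lay apart held 13.4 FPKM for TPP1 in KO cells at 24 h, 9.1 FPKM for NEU1 in WT cells at 0 h, 8.14 FPKM for IDS in KO cells at 48 h and 62.0 FPKM for PPT1 in KO cells at 48 h. PLD3 stood apart in library 2 at 0 h in both genotypes, with 55.4 FPKM in WT and 77.4 FPKM in KO cells. IDS was above 0 in 1 library each at 0 h, with 0.556 FPKM in WT and 0.297 FPKM in KO cells.

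The remaining sets belong to members without a call. In 6 of them the other 3 libraries were at 0: NAGLU in WT cells at 24 h (6.78 FPKM), FUCA1 at 0 h in WT (1.15 FPKM) and KO cells (1.26 FPKM), ARSA in KO cells at 0 h (3.52 FPKM) and WT cells at 24 h (1.75 FPKM), and SMPD1 in KO cells at 0 h (17.6 FPKM). The other values were 11.2 FPKM for SGSH in KO cells at 0 h, 12.4 FPKM for SMPD1 in WT cells at 48 h, 42.0 FPKM for CLN3 in WT cells at 24 h and 51.2 FPKM for GRN in WT cells at 48 h. SMPD1, SGSH and FUCA1 stood apart in the same library, number 3 of the KO 0 h group.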

How the results depend on the processing

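No fold of a called member turned its direction under any alternative. The counts of members that rose moved by more than 1.5 times in these settings. With only the compared groups in the fit they were 0 (WT 24 h), 4 (WT 48 h), 1 (KO 24 h) and, for KO 48 h against 24 h, 0. For KO 48 h that fit gave 9 but lost the PLD3, NPC2 and LAMP2 calls there. Among genes free of opposite-strand overlap, where 23 members are tested, they were 0, 2, 0 and 6 for WT 24 h, WT 48 h, KO 24 h and KO 48 h against 0 h, and 0 for KO 48 h against 24 h. Of the same 23 members the main fit called 0, 3, 0, 6 and 1 in that order. Most of the drop thus lies in the members left out. Without the variance trend the count was 1 for KO 24 h and 0 for KO 48 h against 24 h, and without the filter it was 1 for the latter. Shares over all genes are not given here for these fits, the fits without 1 library or the replicate block. Their counts of members thus have no background beside them. Leaving out 1 library gave 1 to 3 for WT 24 h, 5 to 8 for WT 48 h, 1 to 3 for KO 24 h, 9 to 13 for KO 48 h, 0 to 1 for KO 48 h against 24 h, and 0 to 0 for WT 48 h against 24 h, KO against WT and the differences of responses. Median-of-ratios scaling gave 11 and 14 members at 48 h in WT and KO cells (3.42% and 4.71% of all genes rose). Quantile normalization gave 10 and 15 (3.15% and 4.33% of all genes rose). The former scaling moved the median of all genes by at most 0.11 (KO 48 h). At 24 h the share of higher genes among all calls went from 36.0% to 46.2% and 54.4% in WT and from 37.8% to 48.5% and 56.5% in KO cells under these 2 scalings.

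With the replicate block the counts were 1, 8, 2 and 11 members for WT 24 h, WT 48 h, KO 24 h and KO 48 h against 0 h, 2 for KO 48 h against 24 h and 0 elsewhere, and the calls of TPP1 in WT cells at 48 h and of GALNS in KO cells at 24 h were lost. Same-numbered libraries of different groups did not deviate together (correlations of -0.0435 to 0.0676 over 60 pairs, and 8 of 24 libraries correlated best with their own number), so the numbers were not taken to pair the libraries. The low number of fragments estimated limits members under about 1 FPKM most, where 1 fragment decides a value. Members with higher means were limited too: SMPD1, NPC2 and MCOLN1 (8.74, 12.8 and 5.99 FPKM) were listed at 0 in 7, 5 and 6 libraries. In the group where each was lowest, the estimated means were 4.74, 3.13 and 2.32 fragments.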
